A study of Mus musculus with 4 samples.

Results

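The protocadherin genes of the sciatic nerve were compared between mice that carried the amyloidogenic V30M variant of human transthyretin (TTR) and mice without it. Members were taken by name, as every gene of the deposited expression table whose symbol begins with Pcdh, and 70 of 50593 genes met this rule. The family was looked at because Pcdh10 stood among the genes with the largest excess in HSF V30M, so the values of Pcdh10 are given as a description. HSF V30M TTR mice carried a human TTR V30M transgene on an Sv/129 background, lacked the endogenous Ttr gene and were heterozygous for a deletion of Hsf-1, the gene of the main heat shock transcription factor. HSF WT TTR mice were also Sv/129 and heterozygous for the Hsf-1 deletion. The loss of 1 Hsf-1 allele was thus shared by both groups, whereas the transgene and the missing mouse Ttr separated them together. The labels name 2 mice per group, give the strain as 129S1/SvImJ and the age as 6 months. For each gene the table holds 1 value per group, the FPKM (fragments counted on a transcript, scaled by its length and by the depth of the library) estimated over the libraries of that group. No spread between mice can be derived from it, no difference below was tested, and it is not known whether 1 or both mice of a group carried a given level.

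Protocadherins are cadherin-like adhesion proteins that bind to the same protein on a neighbouring cell. The clustered members lie in 3 adjacent gene clusters, alpha, beta and gamma. There each variable exon has its own promoter, and neurons choose among these promoters, which gives single cells different sets of surface proteins. Alpha and gamma transcripts end in constant exons that all members of the cluster share, whereas each beta gene is a single coding unit. The non-clustered members, among them the delta-1 and delta-2 groups, are separate genes, many of which have restricted expression in the developing nervous system. Several delta-2 proteins bind the WAVE complex, which drives actin branching.

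The nerve itself was recognisable in both groups. The 10 markers of myelinating Schwann cells summed to 13169 FPKM in HSF V30M and 11654 in HSF WT, and none of them differed by more than 1.5-fold. Some markers of other cell types differed by more than 1.5-fold between the groups. Of all genes with a mean of at least 0.1 FPKM, 16.8% were higher in HSF V30M by more than that and 16.7% lower. The 5 B cell markers were all lower in HSF V30M, with a sum of 2.23 against 21.2 FPKM. So were 5 of 6 skeletal muscle markers, with a sum of 39.1 against 143, while the remaining one, Myh1, was higher, at 0.53 against 0.224. By contrast, 5 of 6 neutrophil markers were higher, with a sum of 104 against 30.8, and 5 of 6 erythrocyte markers, with a sum of 291 against 101. The remaining neutrophil marker, Csf3r, was lower, at 2.63 against 6.05. Lower were also 3 of 5 adipocyte markers, with a sum of 2149 against 2975, and 3 of 6 macrophage markers, with a sum of 76.8 against 109, and none of either list was higher. Of 7 pericyte and smooth muscle markers, 1 was higher and 2 were lower, Tagln being at 472 against 1102. Among other cells of the nerve, 1 of 5 markers of non-myelinating Schwann cells was lower, Gfap at 2.28 against 8.77. So were 1 of 5 perineurial markers, Moxd1 at 2.48 against 6.24, and 1 of 8 fibroblast markers, Pi16 at 42.4 against 83.0. Of 5 endoneurial fibroblast markers 1 was higher, Wif1 at 5.16 against 1.30. Of the 8 neuron markers, 4 were higher and none was lower. Tubb3, a neuronal tubulin, was at 9.68 FPKM in HSF V30M against 1.14 in HSF WT, and Rbfox3, a neuronal splicing factor, at 3.65 and 1.20. Stmn2, the most abundant marker of the list, was at 8.45 and 11.7, and Snap25 at 2.45 and 2.50. No marker of the 14 lists was at 0 in either group. With 1 value per group, the marker differences cannot be told apart from the protocadherin differences below, and any link between them was not tested. In whole nerve, fewer cells of a type and less RNA per cell cannot be told apart.

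Of the 70 protocadherin genes, 58 reached a mean of 0.1 FPKM over the groups and 12 did not. Differences were read as log2 ratios of HSF V30M over HSF WT with 0.1 added to both values, and a gene was called past the fold when they differed by more than 1.5-fold. Among the 58 members, 11 were higher (19.0%) and 4 were lower (6.90%) in HSF V30M. The background was 16.8% higher and 16.7% lower over all 24011 genes with that mean. Since most protocadherin transcripts are long, and long transcripts collect more fragments, the 9558 genes with a longest transcript of at least 3000 bases were a closer background. Among these, 8.72% were higher and 8.89% lower, against 10 and 4 of 55 protocadherins of that length. The share of higher members was near the background of all genes and above that of long genes. These counts include Pcdh10, for which the family was chosen, and the long genes were matched on length but not on level. With a minimum mean of 1 FPKM, 4 of 42 members were higher (9.52%), Pcdh10 among them, and 1 was lower (2.38%). The background was then 10.9% of all genes in each direction. The median log2 ratio was 0.29 over the 58 members, of which 42 lay above 0 and 16 below, and 0.00 over all genes. Most of these members lie in 1 locus on chromosome 18, and its alpha and gamma genes share exons, so they are not separate observations. Above 0 were 1 of 3 alpha, 19 of 21 beta and 14 of 22 gamma genes. Outside the clusters, 3 of 4 delta-1 and all 5 delta-2 genes lay above 0, and the 3 remaining genes below. The members just past the limit were Pcdhga11 (log2 ratio 0.62) and Pcdhga4 (-0.59), and those just short of it were Pcdhb15 (0.54) and Pcdhb9 (-0.57).

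**Figure D1:**
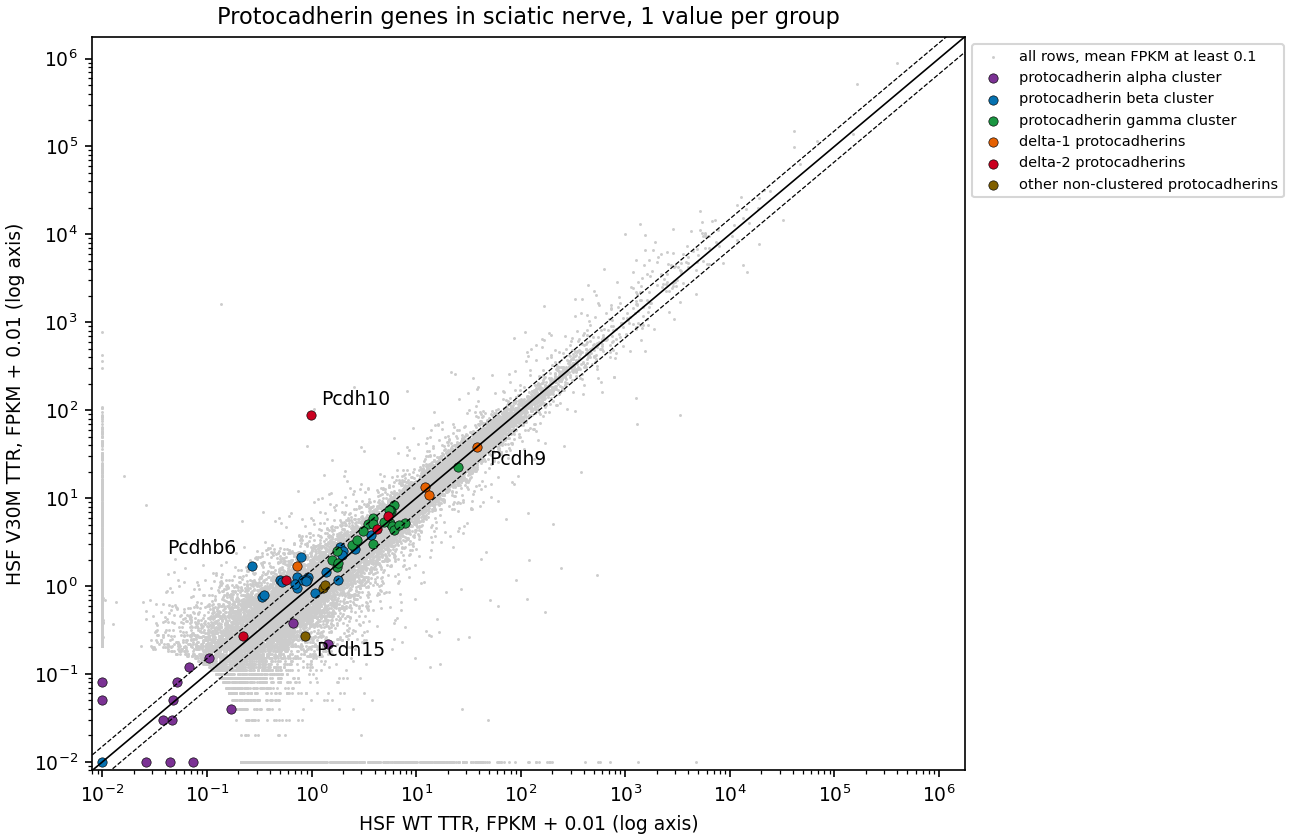
FPKM of each protocadherin gene in HSF V30M TTR (vertical) against HSF WT TTR (horizontal), both on log axes after adding 0.01, 1 point per gene coloured by subgroup over all genes with a mean of at least 0.1 in grey. The solid line marks equal values and the dashed lines 1.5-fold, and Pcdh10, at 87.1 against 0.974 FPKM, stands far above the other members, most of which lie close to the line.

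The number of fragments behind each value was estimated from the steps between low values. The worth of 1 fragment was expressed as FPKM multiplied by the effective transcript length in kilobases. It was 0.0390 or 0.0460 in HSF V30M and 0.0481 or 0.0648 in HSF WT. The search was set to return 2 worths per group, which lay 1.18-fold apart in HSF V30M and 1.35-fold in HSF WT. It therefore cannot show how many depths a group held. Intervals given below are exact 95% intervals of the ratio of these estimated counts on the longest annotated transcript, treated as whole counts. They cover counting error only and leave out the difference between mice. For alpha and gamma genes they also leave out how the reads of shared exons were divided among members. By this measure the interval lay above 1 for 26 of the 58 members and below 1 for 12, including all 11 called higher and all 4 called lower. The share of all genes with such an interval was not computed, so these counts do not set the members apart from other genes.

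Among the delta-2 protocadherins, Pcdh10 (OL-protocadherin), an adhesion protein of developing axons and a partner of the WAVE complex, was at 87.14 FPKM in HSF V30M against 0.974 in HSF WT. This is an 89.5-fold difference (interval 74.7 to 108). On its longest transcript of 8234 bases the values stood for between 15211 and 17966 fragments in HSF V30M and between 121 and 163 in HSF WT. If all fragments came instead from the shortest of its 5 transcripts, of 634 bases, they would be at least 822 and 7. Pcdh10 was the highest of the 70 members in HSF V30M and the 39th in HSF WT. Of 12718 protein-coding genes with a mean of at least 1 FPKM its log2 ratio was the fifth highest, and the highest of the 12708 that were above 0 in HSF WT. It made up 87.7% of the summed delta-2 FPKM in HSF V30M and 8.62% in HSF WT.

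Of the other delta-2 genes, 1 was past the fold. Pcdh17, known from corticobasal ganglia circuits, was at 1.16 FPKM in HSF V30M against 0.554 in HSF WT, 2.09-fold higher (interval 1.66 to 2.68). Pcdh18 was at 6.32 and 5.32 FPKM. Pcdh19, an X-linked gene of a female-limited epilepsy, was at 4.44 and 4.23. Pcdh8 (arcadlin), which takes part in the removal of N-cadherin from synapses, was at 0.26 and 0.213 on at most 29 fragments, with an interval from 0.605 to 2.55. Without Pcdh10 the delta-2 sum was 12.2 FPKM in HSF V30M and 10.3 in HSF WT. Over all 12 members outside the clusters the sum was 165.8 against 79.1 with Pcdh10, and 78.7 against 78.2 without it.

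**Figure D2:**
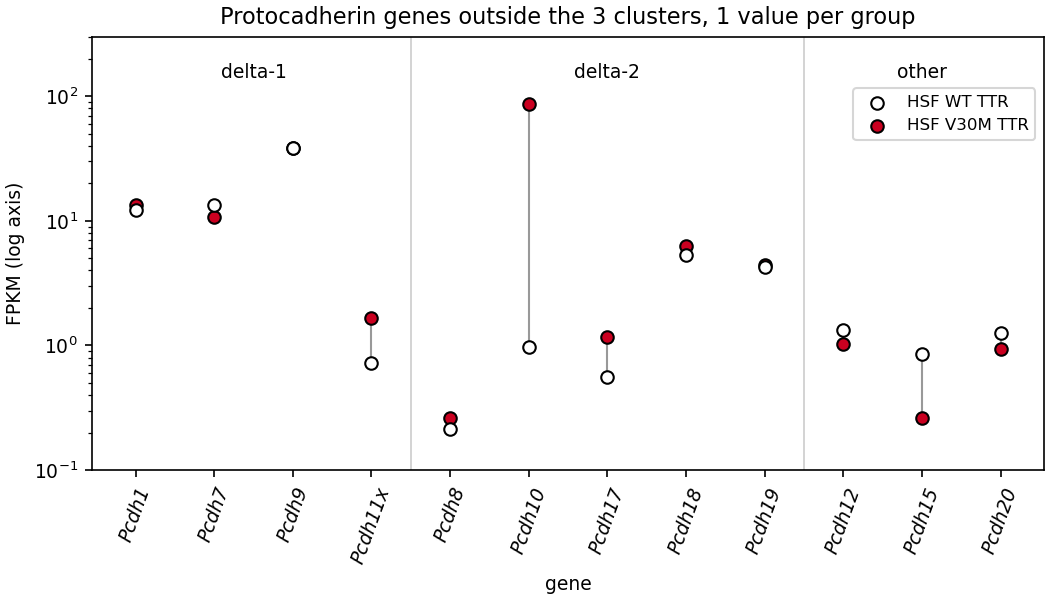
FPKM (log axis) of the 12 protocadherin genes outside the clusters, with 1 open point for HSF WT TTR and 1 red point for HSF V30M TTR per gene, joined by a line. Pcdh10 is in the lower part of the scale in HSF WT and has the highest value of all in HSF V30M, Pcdh11x and Pcdh17 are about 2.32-fold and 2.09-fold higher, Pcdh15 is lower, and the remaining pairs lie close together.

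The sequence before the start of Pcdh10 is shown because this gene carries the largest difference of the family, beside those of Pcdh17, the other delta-2 gene past the fold, and Pcdh8, which was within it. Pcdh10 lies on chromosome 3 (45378398 to 45435623, plus strand, GRCm38). The 250 bases before each start are from RefSeq (GRCm38.p6), where 9 of the 12 members outside the clusters were looked up, and the start used equals that of the GENCODE gene. Capitals mark matches on either strand to 5 motifs. These are the core of a GC box, GGGCGG, and the CCAAT box. A further motif is the core of a cAMP response element, TGACG. The others are the TATAAA box and the inverted units bound by heat shock factors, GAANNTTC or TTCNNGAA. No motif overlaps another in these 3 windows.
Pcdh10, chr3:45378148-45378397, plus strand: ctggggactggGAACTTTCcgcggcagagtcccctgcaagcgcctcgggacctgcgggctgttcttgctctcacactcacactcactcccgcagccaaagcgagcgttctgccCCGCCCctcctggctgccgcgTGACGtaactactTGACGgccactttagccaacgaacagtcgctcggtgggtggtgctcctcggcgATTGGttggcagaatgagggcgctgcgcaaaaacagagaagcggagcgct
Pcdh17, chr14:84443313-84443562, plus strand: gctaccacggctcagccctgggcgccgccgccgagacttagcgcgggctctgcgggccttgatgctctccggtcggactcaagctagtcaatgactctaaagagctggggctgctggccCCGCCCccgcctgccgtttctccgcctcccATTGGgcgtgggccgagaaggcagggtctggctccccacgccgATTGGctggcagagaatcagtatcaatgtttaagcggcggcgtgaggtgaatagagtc
Pcdh8, chr14:79771313-79771562, minus strand: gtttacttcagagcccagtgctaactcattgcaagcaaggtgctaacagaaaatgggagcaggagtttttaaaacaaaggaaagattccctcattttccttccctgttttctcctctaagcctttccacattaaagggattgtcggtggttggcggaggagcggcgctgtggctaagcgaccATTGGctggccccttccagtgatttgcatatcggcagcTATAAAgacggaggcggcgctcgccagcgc
The Pcdh10 window held 1 GC box, 1 CCAAT, 2 TGACG and 1 heat shock pair, and no TATAAA. The Pcdh17 window held 1 GC box and 2 CCAAT, and the Pcdh8 window 1 CCAAT and 1 TATAAA. The windows of Pcdh18 and Pcdh19, which were also within the fold, each held 1 GC box and 1 CCAAT, so these motifs did not separate the delta-2 genes past the fold from the others. The RefSeq starts of those 2 genes differ from the GENCODE starts. Of 32851 RefSeq promoter windows of this length, 32.7% held the GC box, 33.8% CCAAT, 17.8% TGACG, 12.4% TATAAA and 12.8% a heat shock pair. A match describes the letters and is no evidence of binding.

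The genes around Pcdh10 were examined after its value had been seen. Within 2 Mb, 33 genes of the table are annotated, 21 of them at 0 in both groups, and 5 reached a mean of 0.1 FPKM. These 5 are given by their values, since 3 of them were at 0 in HSF WT and reached that mean through HSF V30M alone. 2610316D01Rik, a non-coding transcript on the minus strand whose start lies 138 bases from that of Pcdh10 and which does not overlap it, was at 2.08 FPKM in HSF V30M and was listed at 0 in HSF WT. Its value stood for 33 to 39 fragments, or 21 on its shortest transcript, whereas 3 fragments in HSF WT would have given 0.419 FPKM on that transcript. Gm2136, which begins 2.76 kb past the end of Pcdh10 on the same strand, was at 0.24 on 12 to 15 fragments, and 5930409G06Rik, whose start lies 103 kb upstream of that of Pcdh10, at 0.26 on 8 or 9, and both were listed at 0 in HSF WT. Pabpc4l, a poly(A)-binding protein gene 1070 kb away, was at 2.02 against 0.796. Gm37365 was listed at 0 in HSF V30M and rested on 1 fragment in HSF WT. The counting is not stated to use strand, and a gene listed at 0 may also be one whose estimate failed.

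**Figure D3:**
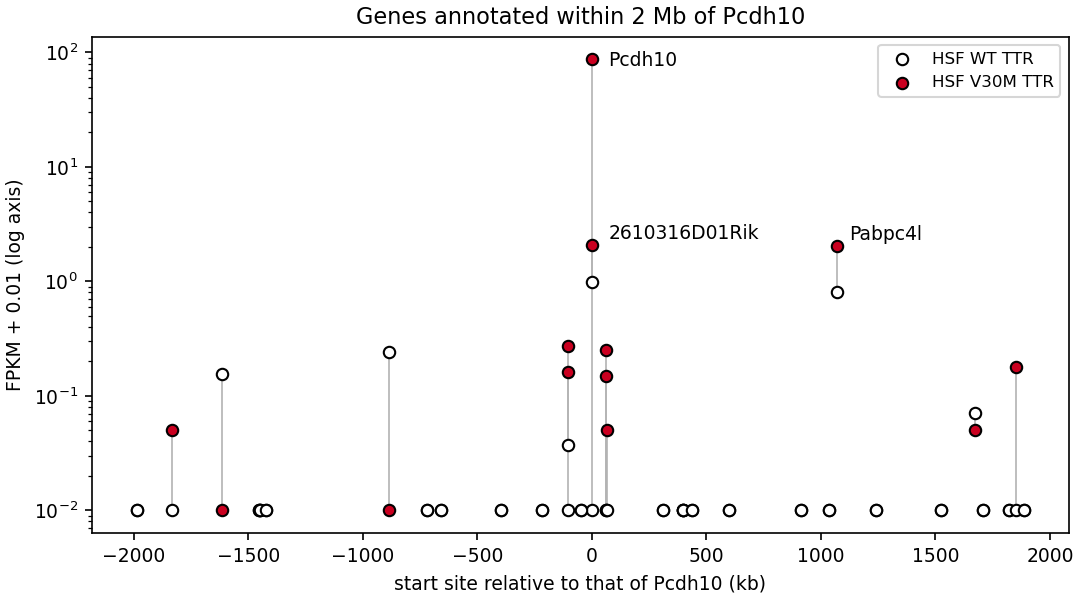
FPKM of the genes annotated within 2 Mb of Pcdh10 (log axis, 0.01 added, so that genes at 0 sit at the bottom) against the distance of their start from that of Pcdh10 in kb, with an open point for HSF WT TTR and a red point for HSF V30M TTR joined by a line. Most genes are at 0 in both groups, Pcdh10 and the adjacent 2610316D01Rik share the position near 0, and the genes about 100 kb to either side are at or under 0.26 FPKM.

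The delta-1 protocadherins are larger proteins that carry a motif for binding protein phosphatase 1. Pcdh9, the most abundant protocadherin of HSF WT nerves at 38.08 FPKM, was at 38.49 in HSF V30M, and the interval of the ratio ran from 0.969 to 1.05. Pcdh1, which is also found in airway epithelium, was at 13.36 and 12.24. Pcdh7 was at 10.73 and 13.34, 1.24-fold lower in HSF V30M (interval of the ratio 0.754 to 0.858), and so within the fold. On the shortest transcript of Pcdh7 the interval ran from 0.601 to 1.07, which includes 1. Pcdh11x, an X-linked gene (120290259 to 120910619, plus strand), was at 1.67 and 0.720, 2.32-fold higher (interval 1.84 to 2.93) on 323 to 381 fragments against 99 to 133. The delta-1 sum was 64.2 FPKM in HSF V30M and 64.4 in HSF WT.

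The 3 remaining genes outside the clusters were all lower in HSF V30M, 1 of them past the fold. Pcdh15, a component of the tip links of hair cells in the inner ear, was at 0.26 FPKM in HSF V30M against 0.848 in HSF WT, 3.26-fold lower (interval of the ratio 0.213 to 0.426) on 50 to 59 fragments against 117 to 157. It has 41 annotated transcripts, and on the shortest of them the interval would run from 0.00451 to 2.95, which includes 1. Pcdh12, an endothelial protocadherin, was at 1.03 and 1.34 with an interval from 0.593 to 1.01. The 8 endothelial markers summed to 205 FPKM in HSF V30M and 172 in HSF WT, but only Vwf was past the fold, at 52.5 against 27.3. Pecam1, the most abundant, was at 44.9 against 56.5, and Tek and Kdr were also slightly lower in HSF V30M. Pcdh20 was at 0.94 and 1.27, with an interval from 0.555 to 0.984. On the shortest transcript of Pcdh20 the interval ran from 0.518 to 1.07, which includes 1.

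The 58 clustered members lie together on chromosome 18, between 36930184 and 37841873 (GRCm38). In the beta cluster, 7 of the 21 members of sufficient level were higher (33.3%) and none was lower, against 16.8% and 16.7% of all genes, and the median log2 ratio was 0.40. The 7 were Pcdhb13 and 6 consecutive genes, Pcdhb2 to Pcdhb7, at the upstream end of the cluster. The calls depended on the settings, and with a pseudocount of 1 only Pcdhb6 and Pcdhb7 stayed past the fold, with a minimum mean of 1 FPKM only Pcdhb7. Pcdhb6 was at 1.66 FPKM in HSF V30M against 0.261 in HSF WT, 6.36-fold higher (interval 3.70 to 12.1) on 127 to 150 fragments against 14 to 19. Pcdhb7 was at 2.13 against 0.786, 2.71-fold higher (interval 1.91 to 3.95). Pcdhb3 was at 1.16 against 0.490. Beside these, Pcdhb4 was at 1.11 against 0.513, Pcdhb5 at 0.79 against 0.339 and Pcdhb2 at 0.74 against 0.323. On the longest transcripts all 6 had counting intervals above 1, the lowest bound being 1.21 for Pcdhb2. On the shortest transcript of Pcdhb2 the interval ran from 0.291 to 18.6, which includes 1. Summed over the stretch of 50.4 kb, the level was 7.59 FPKM in HSF V30M and 2.71 in HSF WT, 2.80-fold higher, on 554 to 655 against 139 to 189 fragments. This stretch was singled out after the values had been seen.

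Downstream of it the beta genes differed less. Over the 15 genes from Pcdhb8 to Pcdhb22 the sum was 25.3 FPKM in HSF V30M and 22.0 in HSF WT, a ratio of 1.15, and only Pcdhb13 was past the fold, at 1.24 against 0.721 (interval 1.18 to 2.58). Pcdhb17, the most abundant beta gene, was at 3.83 and 3.69. Pcdhb15 was at 2.77 and 1.88, Pcdhb22 at 2.63 and 2.60, Pcdhb16 at 2.46 and 1.98, and Pcdhb20 at 2.25 and 1.93. The less abundant genes of this stretch lay mostly somewhat above their HSF WT values, within the fold. Pcdhb11 was at 1.42 and 1.38, Pcdhb12 at 1.24 and 0.915, Pcdhb18 at 1.17 and 0.824, Pcdhb19 at 1.15 and 0.898, Pcdhb21 at 1.13 and 0.878, Pcdhb14 at 1.04 and 0.688 and Pcdhb10 at 0.95 and 0.719. A pair of adjacent genes went the other way, Pcdhb9 at 1.17 against 1.79 (interval of the ratio 0.471 to 0.914) and Pcdhb8 at 0.82 against 1.07. Pcdhb1, the first gene of the cluster, was at 0 in both groups.

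**Figure D4:**
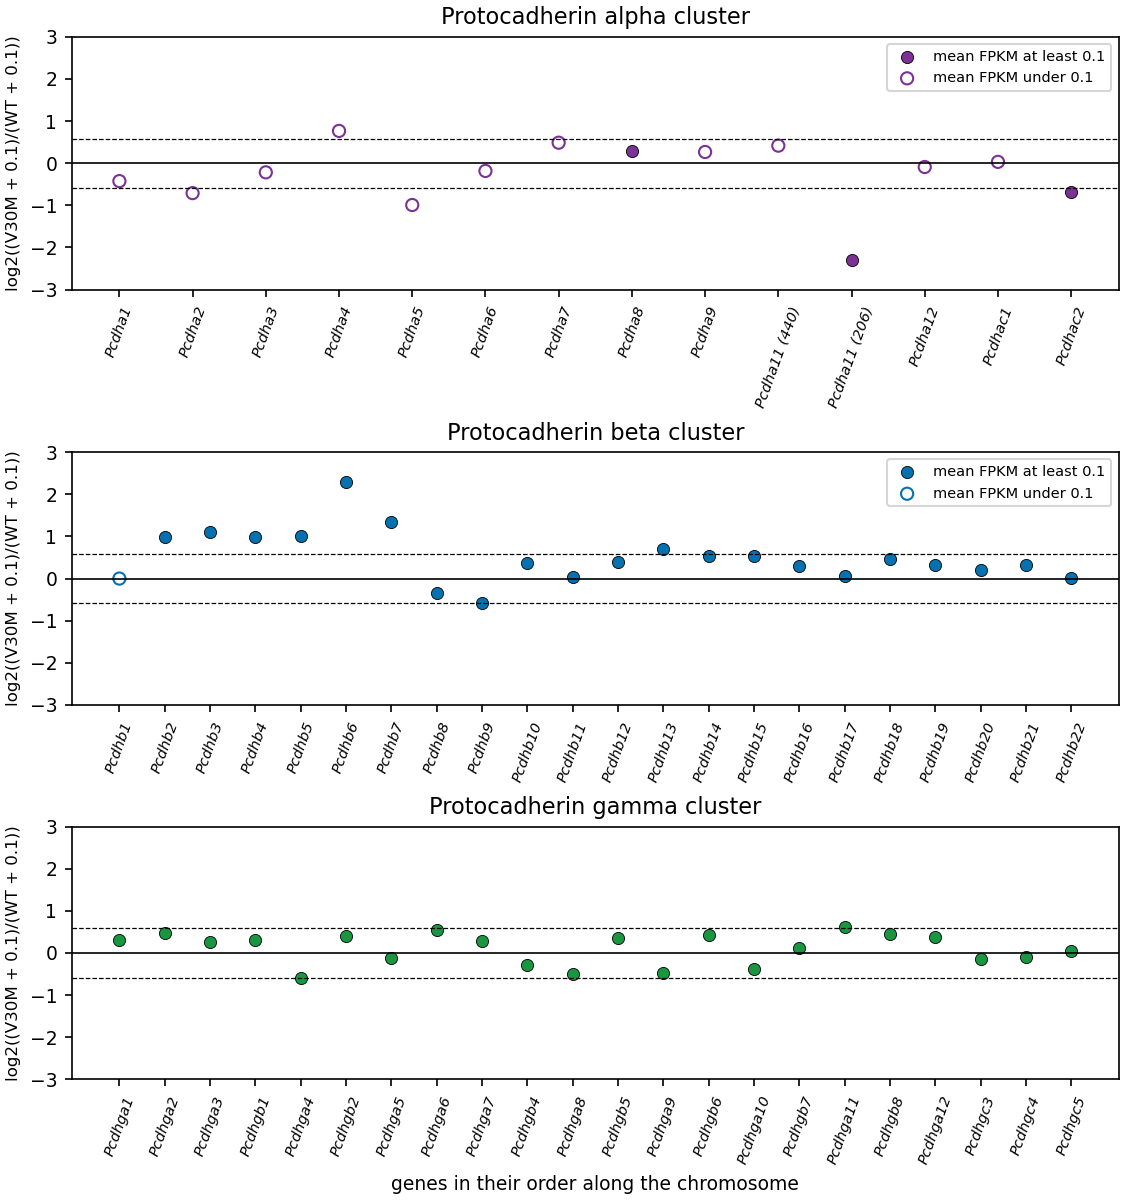
Log2 ratio of HSF V30M TTR over HSF WT TTR, with 0.1 FPKM added to both, for the genes of the alpha, beta and gamma clusters in chromosomal order; filled points have a mean of at least 0.1 FPKM, open points less, and dashed lines mark 1.5-fold. Pcdhb2 to Pcdhb7 lie together between 0.98 and 2.29, while the gamma genes lie between -0.59 and 0.62. The Pcdha11 genes are told apart by the last 3 digits of their identifiers.

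The gamma cluster held most of the clustered signal, 119.8 FPKM in HSF V30M and 115.5 in HSF WT, and all of its 22 members reached the minimum level. One was past the fold in each direction. Pcdhga11 was at 5.98 against 3.85, 1.55-fold higher (interval 1.34 to 1.80), and Pcdhga4 at 5.18 against 7.84, 1.51-fold lower (interval of the ratio 0.584 to 0.746). Pcdhgc3, a C-type member expressed broadly in place of being chosen cell by cell, was the most abundant clustered gene, at 22.5 and 25.0 FPKM. It made up 18.8% and 21.7% of the gamma sum. The other C-type genes, Pcdhgc4 and Pcdhgc5, were at 1.62 and 1.84 in HSF V30M and at 1.74 and 1.78 in HSF WT.

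The variable gamma genes varied in both directions between neighbours. The 7 B-type genes summed to 40.7 FPKM in HSF V30M and 33.9 in HSF WT, led in HSF V30M by Pcdhgb2 at 8.25 and 6.17, Pcdhgb6 at 7.37 and 5.44, and Pcdhgb5 at 7.24 and 5.62. Pcdhgb7 was at 5.36 and 4.95, Pcdhgb8 at 4.25 and 3.10, and Pcdhgb1 at 3.37 and 2.71, and the only B-type gene with a lower value was Pcdhgb4, at 4.83 against 5.88. The 12 A-type genes summed to 53.1 FPKM in both groups. Above the HSF WT level were Pcdhga7 at 7.04 against 5.75, Pcdhga6 at 5.09 against 3.48, Pcdhga12 at 5.09 against 3.87, Pcdhga3 at 2.94 against 2.44, Pcdhga2 at 2.46 against 1.74 and Pcdhga1 at 1.96 against 1.57. Below it were Pcdhga9 at 4.97 against 6.92, Pcdhga8 at 4.30 against 6.16, Pcdhga5 at 5.16 against 5.58 and Pcdhga10 at 2.96 against 3.86. Between 27.8% and 66.8% of the exonic bases of a gamma gene are shared with another member, so these values depend on how the authors' estimate divided the reads of the constant exons. For the beta genes the share was at most 9.67%, and for the members outside the clusters it was 0.

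The alpha cluster was near the limit of detection. Its 14 genes summed to 1.12 FPKM in HSF V30M and 2.65 in HSF WT, and only 3 reached a mean of 0.1. The gene named Pcdha11 with the identifier ENSMUSG00000102206 was at 0.21 against 1.43, 6.82-fold lower (interval of the ratio 0.0921 to 0.234) on 24 to 28 against 114 to 154 fragments. This gene alone held 54.0% of the alpha sum in HSF WT. The other gene of that name, ENSMUSG00000007440, was at 0.11 and 0.0575. Pcdhac2, a C-type gene and the isoform of serotonergic neurons, was at 0.37 against 0.653, 1.76-fold lower (interval of the ratio 0.380 to 0.860). Pcdha8 was at 0.14 and 0.0956 with an interval from 0.574 to 3.83. Pcdha1, Pcdha2 and Pcdha3 were listed at 0 in HSF V30M, and Pcdha4 and Pcdha7 in HSF WT, each against at most 9 fragments in the other group. Between 38.0% and 54.9% of the exonic bases of an alpha gene are shared.

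The partners, regulators and relatives of protocadherins were read as 6 lists of 66 genes. Of the 60 with a mean of at least 0.1 FPKM, 4 were higher (6.67%) and 8 lower (13.3%) in HSF V30M, and their median log2 ratio was 0.00. The shares of all genes were 16.8% and 16.7%, and those of long genes 8.72% and 8.89%. In the WAVE complex, the actin regulator bound by Pcdh10, 1 of 11 genes was higher and 1 lower. Wasf1, its activating subunit in neurons, was at 4.05 against 2.04, and Abi3 at 1.92 against 4.18, while Abi1, the most abundant, was at 76.8 and 57.4. None of the 5 genes of the list with the kinases that bind protocadherin tails and Ret was past the fold, and Fyn, the most abundant, was at 86.6 and 75.2. The same held for the 7 genes of the list of proteases that shed and cut protocadherins, in which Adam10 was at 107 and 82.1.

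Among 14 factors that organise the clusters' chromatin, only the cohesin subunit Smc3 was past the fold, at 7.54 against 14.0. Ctcf, which binds the promoters of the variable exons, was at 25.8 and 35.3, and Stag1, the most abundant, at 36.2 and 36.7. Of 9 atypical cadherins of sufficient level, Celsr3 was lower, at 0.22 against 0.886, and Fat1, the most abundant, was at 42.0 and 41.2. In the list of classical and related cadherins, 3 of 14 were higher (21.4%) and 5 lower (35.7%), against 16.8% and 16.7% of all genes. Cdh2 (N-cadherin) was at 13.3 against 7.84, Cdh13 (T-cadherin, which is anchored by a lipid and lacks the tail of the classical members) at 12.6 against 8.02 and Cdh3 at 0.78 against 0.438. Lower were Cdh4 at 1.33 against 2.38, Cdh6 at 0.53 against 2.05, Cdh10 at 0.68 against 1.74, Cdh9 at 0.24 against 0.495 and Cdh20 at 0.13 against 0.355. Of the genes past the fold in this list, Cdh3, Cdh9 and Cdh20 had a mean under 1 FPKM. Cdh1 (E-cadherin), which joins the membranes of a myelinating Schwann cell to each other, was the most abundant, at 88.5 and 67.1.

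**Figure D5:**
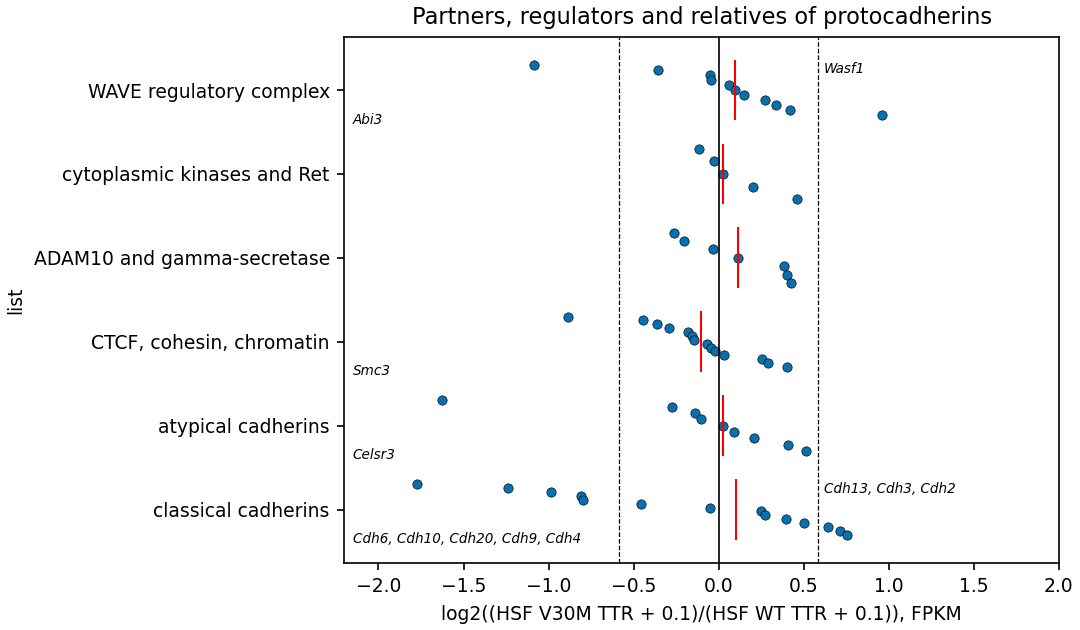
Log2 ratio of HSF V30M TTR over HSF WT TTR, with 0.1 FPKM added to both, for genes of 6 lists with a mean of at least 0.1 FPKM, 1 point per gene, with the list median as a red line and 1.5-fold as dashed lines. Genes past the fold are named beside their list, and the list medians lie between -0.11 for the chromatin factors and 0.11 for ADAM10 and gamma-secretase.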

How the data were processed

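Sciatic nerve RNA was sequenced as Ion Torrent libraries from 2 HSF V30M TTR and 2 HSF WT TTR mice, per the labels. The study's methods give n = 4 without saying whether this is per group. The authors aligned the reads to GRCm38, a C57BL/6J genome, and the submitters' processing notes name STAR, Cufflinks and Cuffdiff, with no version. The authors deposited 1 table with 1 FPKM value per gene and group, written with decimal commas and read by column number, in which HSF V30M values are rounded to 2 decimals. Its columns of the authors' own comparison (fold change, p-value, q-value, significance and status) were not used.

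Log2 ratios were computed with 0.1 added to both values. Past the fold meant more than 1.5-fold with a mean of at least 0.1 FPKM, and carries no test, since values per mouse were not analysed here. Fragments were estimated as FPKM times transcript length less 200 bases, divided by the worth of 1 fragment, which was found from the values of single-transcript genes. Of 645 HSF WT values in the range of a single fragment, 98.1% lay within 1% of either worth. Since the worths had been found from such values, this is no independent check. Higher multiples were not examined, and no such share was computed for HSF V30M. Depth per mouse was unknown. Transcripts and positions are those of GENCODE M21 (GRCm38), which holds all 70 members and 50369 of 50593 gene identifiers. Computations ran in Python 3.11.15 with pandas 2.3.3 and numpy 2.4.6, intervals came from scipy 1.17.1 and figures from matplotlib 3.10.9. The fold count and fragment estimate were tested on simulated data.

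The genes named are all members outside the clusters, cluster members with a mean of at least 0.5 FPKM or among the 3 largest differences in each direction, and in each list of partners the most abundant gene and those past the fold. Neighbouring genes, the stretch of beta genes and a few others were named after their values were seen. The members and lists were chosen with earlier results of these data known. The alternatives were other pseudocounts, minimum means, folds, scaling, background genes and transcripts.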

Additional observations from a re-analysis of the deposited data

How the results depend on the processing

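No paired analysis was possible because each group has a single deposited FPKM per gene, and for the same reason leaving out each mouse in turn was not run. All 15 members past the fold kept their direction with a pseudocount of 1, with one of 0.01 and under median-of-ratios scaling, and 5, 15 and 14 of them stayed past the fold. The 15 members past the fold (11 higher and 4 lower) became 5 (4 and 1) with a pseudocount of 1, 5 (4 and 1) with a minimum mean of 1 FPKM, 8 (6 and 2) with a fold of 2, and 4 (3 and 1) outside the clusters. With a minimum mean of 1, the background was 10.9% in each direction. Over long transcripts the background was 8.72% higher and 8.89% lower. With a pseudocount of 1 the median log2 ratio became 0.18 for all members, -0.27 for the alpha cluster, 0.23 for the beta cluster and -0.23 for Pcdh12, Pcdh15 and Pcdh20. The alpha median was -0.68, and became -1.49 with a minimum mean of 0.5 and -0.14 with none; a minimum of 1 left no alpha gene. The beta median was 0.30 with a minimum mean of 1, and the delta-2 median was 0.24 and became 0.60 with one of 0.5. Genes of the partner lists called lower numbered 5 with a pseudocount of 1 and 5 with a minimum mean of 1. On its shortest transcript, Pcdh10 rested on at least 822 fragments in HSF V30M and 7 in HSF WT. The causes of these changes were not tested. No direction was reversed. Of the 7 beta genes called higher, 2 stayed past the fold with a pseudocount of 1 and 1 with a minimum mean of 1. Low values also limit the alpha genes, Pcdh8 and the neighbours of Pcdh10.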
